A study of Mus musculus with 6 samples.

Results

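The cytosolic ribosomal protein genes were 82 of the 12366 genes in a liver expression table. They were chosen by symbol: Rpl or Rps followed by a number, Rplp, or Rpsa, kept where the table gave the type as protein coding. The pattern matched 139 rows, and the rule left out 48 pseudogene rows, 7 rows of Rps6k kinases, and 2 rows of another type, Rpl37rt and Rps4l. Of the 82 genes, 49 carry large subunit symbols and 33 carry small subunit symbols. The large subunit set held 46 core proteins and the paralogs Rpl7l1, Rpl22l1 and Rpl36al. The small subunit set held 30 core proteins, the paralog Rps27l, the retrogene Rps27rt and Rps19bp1, which encodes a binding partner of a ribosomal protein and not a subunit. Rps23 was not analysed here.

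The study compared livers of Acss2-/- mice (Acss2-KO, 3 libraries) with livers of wild type mice (WT, 3 libraries). All were C57BL/6 males on chow, aged 22 weeks, and all had been fasted for 48 h before the liver was taken. Acss2 encodes the enzyme that makes acetyl-CoA from acetate in the cytosol and nucleus. The labels give the allele only as Acss2-/-, name no Cre or promoter, and do not say that the libraries came from separate animals, so the p-values below measure the spread between these libraries.

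The ribosome of the cytosol is built from ribosomal RNA and a set of proteins, most of which are present in equal copy number. The large subunit joins amino acids while the small subunit reads the mRNA. In mammals the mRNAs of these proteins belong to the TOP class: they begin with a C followed by a run of pyrimidines, the 5′-terminal oligopyrimidine tract, through which mTORC1 and LARP1 adjust their translation and stability when nutrients change. Liver makes much of the protein of the blood, and fasting is a setting in which mTORC1 signalling and ribosome production are known to fall. A level of mRNA does not give the rate at which it is translated.

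The stretch around the transcript start is shown for the genes on which the comparison turned, because the TOP tract lies there. Each window holds the 10 bases before the RefSeq transcript start and the 20 bases from it on, read 5′ to 3′ on the strand of the gene, from the RefSeq promoter table of GRCm38.p6. Capitals mark a run that begins with C and continues with at least 4 bases that are each C or T, searched from 5 bases before the start to 10 bases after it on the sense strand and printed to its end. The first 5 are the genes that passed the test of Acss2-KO against WT. The other 4 are examples whose start base is a C with at least 4 more bases of C or T after it.
Rpl27a: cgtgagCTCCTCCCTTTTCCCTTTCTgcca
Rpl39: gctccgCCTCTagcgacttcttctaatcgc
Rpl7l1: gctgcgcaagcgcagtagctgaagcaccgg
Rps13: caaacgtcggtgagtggcgtcacttcctgt
Rps28: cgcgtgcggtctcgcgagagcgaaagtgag
Rpl28: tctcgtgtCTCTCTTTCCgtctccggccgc
Rplp2: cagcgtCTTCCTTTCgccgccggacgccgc
Rps6: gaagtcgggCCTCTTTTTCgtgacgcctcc
Rps27: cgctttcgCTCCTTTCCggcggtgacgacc
The windows lie at chr7:109519185-109519214 on the plus strand (Rpl27a), chrX:37085203-37085232 on the minus strand (Rpl39), chr17:46782637-46782666 on the minus strand (Rpl7l1), chr7:116334171-116334200 on the minus strand (Rps13) and chr17:33824543-33824572 on the minus strand (Rps28). The other 4 lie at chr7:4792955-4792984 on the plus strand (Rpl28), chr7:141447641-141447670 on the plus strand (Rplp2), chr4:86857348-86857377 on the minus strand (Rps6) and chr3:90213629-90213658 on the minus strand (Rps27).

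Of the 82 genes, 62 were matched in the RefSeq table. A run that begins within the search window was found in 29 of these 62 (46.8%), against 5718 of all 27025 genes of the table (21.2%). The start base was a C with at least 4 more bases of C or T after it, with or without more of the run before it, in 14 of 62 members (22.6%), against 813 of 27025 genes (3.01%). In Rpl7l1, Rps13 and Rps28 the searched stretch holds no such run, which says only that these letters are not within reach of the annotated start. Runs past that stretch, as in Rps13, were not counted or marked. Among the members tested for expression, the 28 with a run near the start had a median log2 fold change of 0.26 (Acss2-KO over WT) and the 33 without had 0.23. These are descriptions of the annotated starts, which need not be the starts used in these livers.

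The deposited values are log2 read counts scaled to one fixed total per library (counts-per-million, CPM), and values of 1 CPM or less are listed at 0 on that scale. The spacing of the lowest values gave 21.8 to 28.6 M reads per Acss2-KO library and 23.4 to 30.8 M per WT library, so 5 CPM, the lowest mean tested, stood for 109 to 154 reads. Acss2 itself was at 1.37, 3.56 and 2.35 CPM in Acss2-KO replicates 1, 2 and 3, against 74.0, 81.0 and 73.5 CPM in WT replicates 1, 2 and 3, a log2 fold change of -4.54 (SE 0.24, limma adjusted p = 2.57e-05). The hepatocyte markers summed to 98730 to 108300 CPM in Acss2-KO livers and 89430 to 110300 CPM in WT livers, with 0 of 8 higher and 2 of 8 lower by limma. Markers of other cells differed in both directions, against 13.4% of all tested genes higher and 23.1% lower. Of erythroid genes 5 of 5 were lower (sums of 41.2 to 67.0 CPM in Acss2-KO livers and 162 to 280.5 CPM in WT livers), whichever library was left out. Of Kupffer cell and macrophage genes 3 of 9 were lower (112 to 187 CPM in Acss2-KO livers and 214 to 632 CPM in WT livers). That count was 0 (Acss2-KO 3 or WT 2 left out), 1 (Acss2-KO 1 or WT 3 left out) and 1 under each of the 3 rescalings. Of sinusoidal endothelial genes 1 of 9 was higher (Lyve1, log2 fold change 2.55, limma adjusted p = 0.0033) and 2 lower, with sums of 356 to 461 CPM in Acss2-KO livers and 316 to 476 CPM in WT livers. The higher genes of that list numbered 2 (Acss2-KO 2 or WT 2 left out) and 2 to 3 when rescaled. Of 2 cholangiocyte genes, Sox9 was higher (log2 fold change 1.33) and Spp1 lower (-2.08), and sums were 14.03 to 17.3 CPM in Acss2-KO livers and 32.2 to 37.3 CPM in WT livers. Stellate cell genes were lower in 3 of 8 (246 to 408 CPM in Acss2-KO livers and 296 to 448 CPM in WT livers). B and plasma cell genes were lower in 2 of 3 (11.3 to 22.6 CPM in Acss2-KO livers and 32.2 to 115 CPM in WT livers), and in 0 of 3 (Acss2-KO 3 or WT 3 left out) and 1 of 3 (Acss2-KO 2 left out). The 3 T and NK cell markers in the table were under the level tested. All stood at 1 CPM or less in every Acss2-KO library and in WT replicate 1, and they summed to 6.75 CPM in WT replicate 2 and 4.29 CPM in WT replicate 3. In bulk liver RNA, fewer cells of a type and less RNA per cell cannot be told apart, and the part of these cells in the results below was not tested.

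As a group, the ribosomal protein mRNAs stood at like levels in the 3 Acss2-KO livers and at unlike levels in the 3 WT livers. The 82 genes together took 1.34%, 1.18% and 1.44% of reads in Acss2-KO replicates 1, 2 and 3. They took 0.978%, 0.881% and 1.52% in WT replicates 1, 2 and 3. WT replicates 1 and 2 were thus below every Acss2-KO library and WT replicate 3 was above every one, so the groups overlapped.

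Both subunits had this order. Large subunit genes summed to 7778, 6882 and 8383 CPM in Acss2-KO replicates 1, 2 and 3, against 5873, 5246 and 8467 CPM in WT replicates 1, 2 and 3. Small subunit genes summed to 5609, 4900 and 6001 CPM in Acss2-KO livers, against 3903, 3562 and 6712 CPM in WT livers. The means were 7681 ± 755 CPM in Acss2-KO livers and 6529 ± 1708 CPM in WT livers for the large subunit (SD, n = 3 each), and 5504 ± 558 CPM in Acss2-KO livers and 4726 ± 1729 CPM in WT livers for the small subunit. The SD among WT libraries was the larger one in 67 of the 80 tested members (83.8%), against 51.3% of all tested genes.

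**Figure D1:**
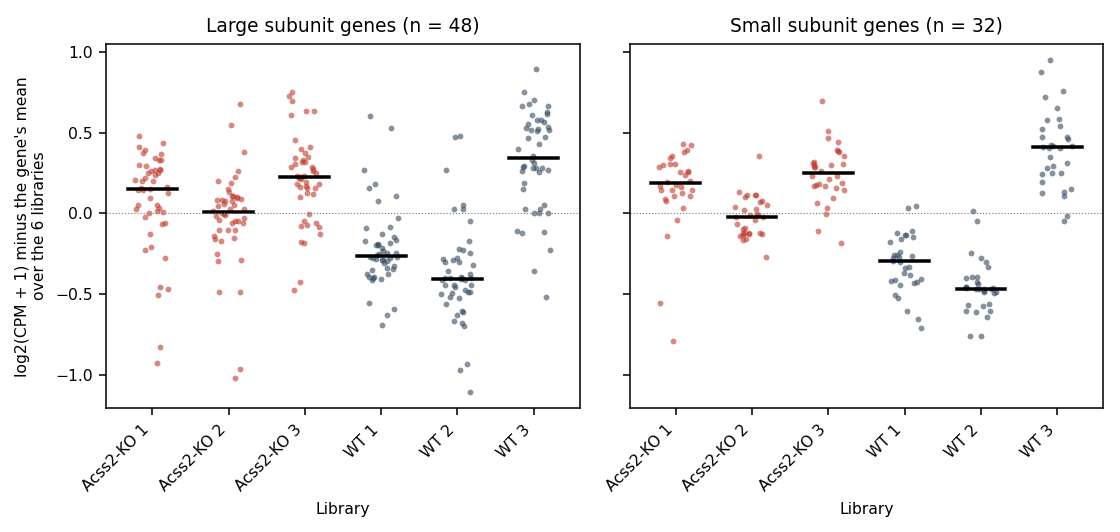
Level of each tested ribosomal protein gene in each library, as log2(CPM + 1) minus the mean of that gene over the 6 libraries, for 48 large subunit genes (left) and 32 small subunit genes (right). Points are genes, black bars are medians, Acss2-KO libraries are red and WT libraries dark blue. WT replicates 1 and 2 lie lowest and WT replicate 3 highest in both panels, with the 3 Acss2-KO libraries between them.

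WT replicate 3 stood apart gene by gene. Of the 75 tested core genes, 43 had their highest value in WT replicate 3 and 60 had their lowest in WT replicate 2. WT replicate 3 lay above both other WT libraries in 72 of the 75 (96%), against 30.2% of all tested genes. Relative to the mean of WT replicates 1 and 2, its median level was 1.62 times for large subunit genes, 1.74 times for small subunit genes and 0.924 times for all tested genes.

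The same library was high for other short mRNAs and for some groups of longer ones. Among tested genes that are no ribosomal protein genes, its median ratio to the other WT libraries was 1.36 for 462 genes with a longest coding transcript under 1000 nt, and 0.814 for 2952 genes over 4000 nt. Complex I subunits of the respiratory chain were at 1.42 times, proteasome subunits at 1.36 times and mitochondrial ribosomal proteins at 1.24 times. Translation initiation factors and ribosome biogenesis factors were at 1.01 times each. The median longest transcript was 914 nt for large subunit genes, 791 nt for small subunit genes and 3049 nt for all tested genes. The part of transcript length in the results was not tested, and results that rest on WT replicate 3 are given with and without it.

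**Figure D2:**
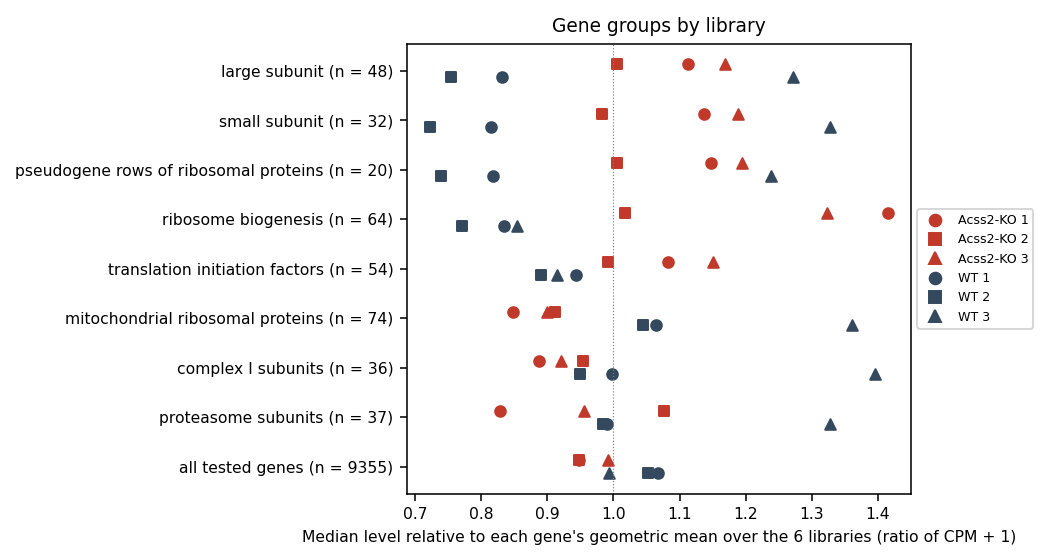
Median level of each gene group in each library, as the ratio of CPM + 1 to the geometric mean of that gene over the 6 libraries, with Acss2-KO libraries in red and WT libraries in dark blue. WT replicate 3 (dark triangle) is the highest point for both subunits, the pseudogene rows, mitochondrial ribosomal proteins, complex I and the proteasome, and lies with the other WT libraries for ribosome biogenesis and initiation factors.

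Few ribosomal protein genes passed the test between genotypes. By limma on log2(CPM + 1) over the 9355 genes that averaged 5 CPM or more, with a Benjamini-Hochberg adjusted p under 0.05, 1 of 48 large subunit genes was higher in Acss2-KO livers (Rpl27a) and 2 were lower (Rpl39 and Rpl7l1). Of the 32 small subunit genes, 2 were higher (Rps28 and Rps13) and 0 lower, with 1 lower at an unadjusted p under 0.05 (Rps27l). That is 6.25% of each subunit called, against 36.5% of all tested genes, of which 13.4% were higher and 23.1% lower. Rpl21 and Rps27rt were under the minimum level and not tested, with no value above 2.91 CPM in any library.

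The counts of higher genes depended on single libraries, named here by group and replicate number. Large subunit genes called higher numbered 0 (Acss2-KO 1 left out), 3 (Acss2-KO 2 left out), 0 (Acss2-KO 3 left out), 2 (WT 1 left out), 0 (WT 2 left out) and 15 (WT 3 left out). Small subunit genes called higher numbered 1 (Acss2-KO 2 left out), 16 (WT 3 left out) and 0 (any other library left out). Large subunit genes called lower numbered 1 (Acss2-KO 3 left out) and 2 otherwise. Calls over all tested genes moved as well, with 1252 called higher when no library was left out. That number was 801 (Acss2-KO 1 left out), 1608 (Acss2-KO 2 left out) and 519 (Acss2-KO 3 left out). It was 846 (WT 1 left out), 780 (WT 2 left out) and 920 (WT 3 left out).

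The median log2 fold change was 0.26 over large subunit genes and 0.24 over small subunit genes, against -0.12 over all tested genes. It was positive in 39 of 48 large subunit genes and 29 of 32 small subunit genes. The groups did not overlap in 11 of 48 large and 3 of 32 small subunit genes, against 52.9% of all tested genes. Scaling by trimmed means placed the median of all tested genes at 0.02 in place of -0.12. On that scale the medians were 0.40 for the large and 0.39 for the small subunit, 5 large and 3 small subunit genes were higher, and 2 large subunit genes were lower. Over all tested genes the calls were 1252 higher and 2161 lower on the CPM scale, and 1807 higher and 1586 lower with trimmed means.

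**Figure D3:**
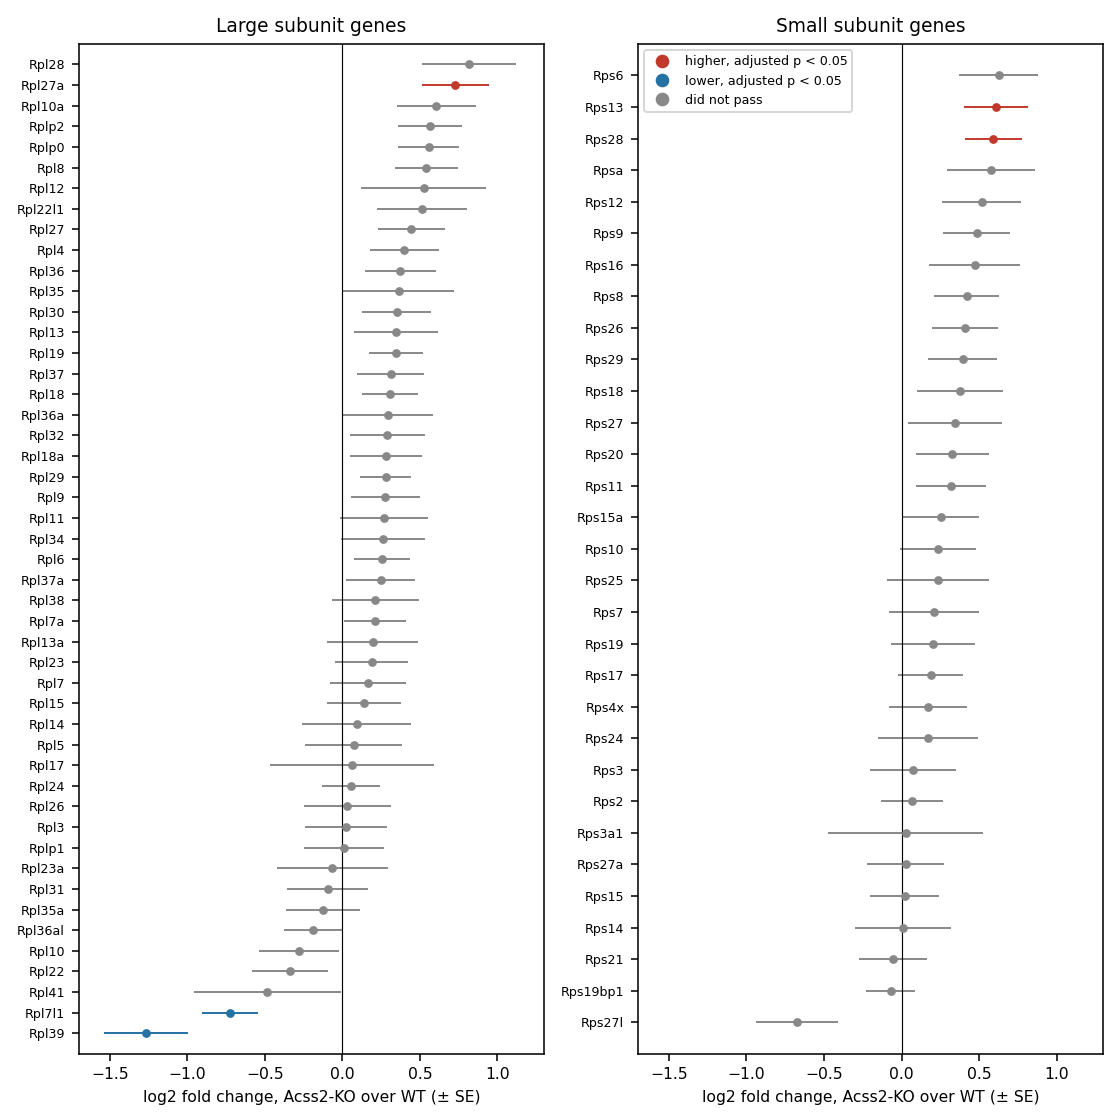
Log2 fold change of the tested genes but 1, Acss2-KO over WT, with its standard error, for large subunit genes (left) and small subunit genes (right). Red points are higher and blue points lower at a limma adjusted p under 0.05, and grey points did not pass. Most grey points lie to the right of 0 and 3 genes, Rpl39, Rpl7l1 and Rps27l, lie well to the left.

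Rpl39 had the largest difference of all members. It encodes a very small protein of the large subunit at the peptide exit tunnel, and lies at chrX:37082520-37085402 (ENSMUSG00000079641). It was at 15.6, 15.1 and 30.5 CPM in Acss2-KO replicates 1, 2 and 3, against 44.6, 42.8 and 57.7 CPM in WT replicates 1, 2 and 3. Every Acss2-KO library was below every WT library. The log2 fold change was -1.27 (SE 0.27, limma adjusted p = 0.00812), and the adjusted p was 0.0053 to 0.045 when each library was left out in turn.

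Rpl7l1 encodes a paralog of the protein uL30 that is known as a factor of large subunit assembly (chr17:46773907-46782656, ENSMUSG00000063888). It was at 32, 42.5 and 32.7 CPM in Acss2-KO livers, against 55.3, 55.3 and 67.6 CPM in WT livers, with no overlap. Its log2 fold change was -0.72 (SE 0.18, limma adjusted p = 0.0149). Without Acss2-KO replicate 3 the adjusted p was 0.070.

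Rpl27a encodes a core protein of the large subunit, uL15 (chr7:109519147-109522367, ENSMUSG00000046364). It was at 240.5, 194 and 280.1 CPM in Acss2-KO livers, against 172, 129.8 and 127 CPM in WT livers. WT replicate 3 was its lowest library, unlike for most members. The log2 fold change was 0.73 (SE 0.21, limma adjusted p = 0.0281), and the adjusted p was 0.061 (Acss2-KO 1 left out), 0.12 (Acss2-KO 3 left out), 0.097 (WT 2 left out) and 0.069 (WT 3 left out).

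**Figure D4:**
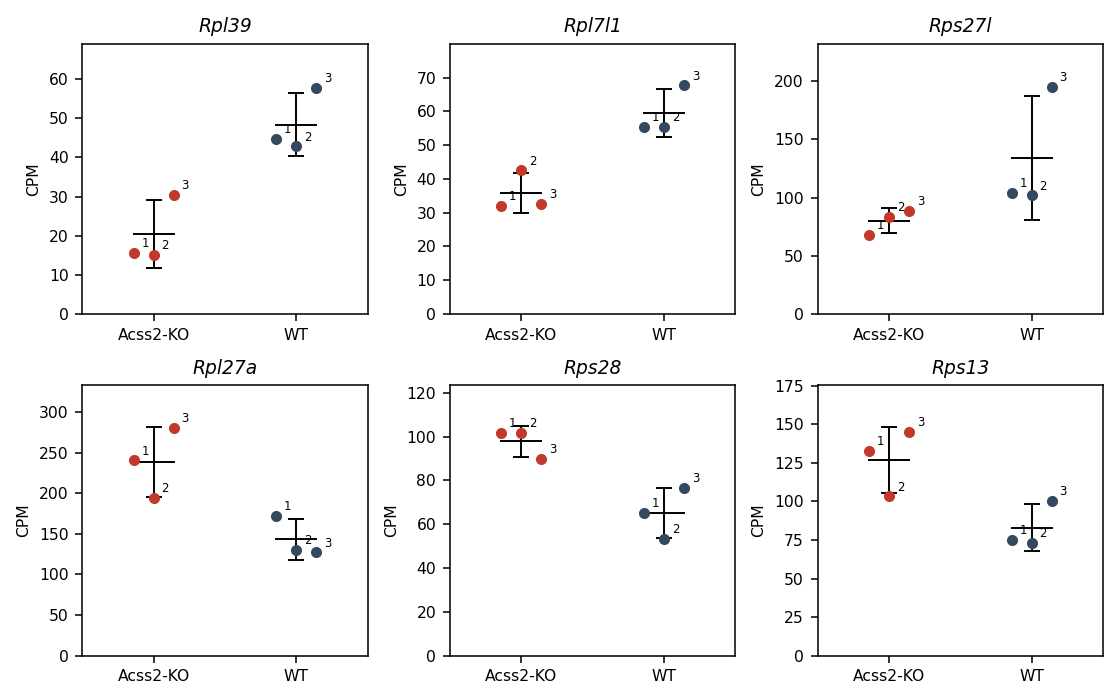
CPM of 6 genes in each library, with Acss2-KO on the left and WT on the right of each panel. Numbered points are replicates, and the bars are the mean ± SD (n = 3 each). In the upper row, Rpl39, Rpl7l1 and Rps27l, all Acss2-KO points lie below all WT points. In the lower row, Rpl27a, Rps28 and Rps13, they lie above.

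In 8 other large subunit genes the groups did not overlap and the test was not passed. Rplp0, Rplp2, Rpl28 and Rpl8 had limma adjusted p-values of 0.0545 to 0.0625, and Rpl27, Rpl19, Rpl29 and Rpl6 had 0.131 to 0.284. The stalk proteins P0, P1 and P2 recruit the elongation factors. Rplp0 was at 622, 498 and 639 CPM in Acss2-KO livers, against 380.0, 370 and 443 CPM in WT livers (log2 fold change 0.56, SE 0.20, limma adjusted p = 0.0545). Rplp2 was at 205, 169 and 191 CPM in Acss2-KO livers, against 129.8, 101 and 154 CPM in WT livers (log2 fold change 0.57, SE 0.21, limma adjusted p = 0.0584). The partner of Rplp2 in the stalk had another pattern. Rplp1 was at 329, 309 and 402 CPM in Acss2-KO livers, against 292, 278 and 491 CPM in WT livers, and the groups overlapped (log2 fold change 0.01, SE 0.26, limma adjusted p = 0.979).

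Rpl28, a core large subunit gene, was at 165, 186 and 223 CPM in Acss2-KO livers, against 154, 65.8 and 122 CPM in WT livers. Its log2 fold change of 0.82 was the highest of the members but its SE was 0.30 (limma adjusted p = 0.0616), and WT replicate 2 was its low library. In the authors' deposited table Rpl28 and Rpl39 were the members past an adjusted p of 0.05, with log2 fold changes of 0.89 (adjusted p = 0.049) and -1.11 (adjusted p = 0.012), and 27.2% of all rows of that table were past it. Rpl8, whose protein lies near the peptidyl transferase centre, was at 393, 290.0 and 377 CPM in Acss2-KO livers, against 239, 218 and 267 CPM in WT livers (log2 fold change 0.54, SE 0.20, limma adjusted p = 0.0625). Rpl10a was at 278, 226 and 294 CPM in Acss2-KO livers, against 162, 131.6 and 244 CPM in WT livers (log2 fold change 0.61, SE 0.25, limma adjusted p = 0.0881). Here WT replicate 3 reached into the Acss2-KO range.

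Rpl5 and Rpl11 form the 5S RNP with 5S rRNA, which can bind Mdm2 and thereby stabilise p53. Rpl5 was at 385, 227.5 and 402 CPM in Acss2-KO livers, against 269, 242 and 465 CPM in WT livers (log2 fold change 0.07, SE 0.31, limma adjusted p = 0.873). Rpl11 was at 189, 219.8 and 247 CPM in Acss2-KO livers, against 150.1, 137 and 284 CPM in WT livers (log2 fold change 0.27, SE 0.28, limma adjusted p = 0.483). In both, WT replicate 3 was the highest library. Without it, Rpl11 had a log2 fold change of 0.59 with a limma adjusted p of 0.044. That adjusted p was 0.044 to 0.88 when each library was left out in turn.

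The most abundant large subunit mRNA by CPM was Rpl4, at 744, 653 and 815 CPM in Acss2-KO livers, against 523, 465 and 709 CPM in WT livers (log2 fold change 0.40, SE 0.22, limma adjusted p = 0.187). Among large subunit genes, levels per length were taken as mean CPM per kb of the longest coding transcript. The highest were 707 for Rplp1, 458 for Rpl4, 362 for Rplp0 and 345 for Rpl8. The lowest tested were 12.8 for Rpl29 and 18.3 for the paralog Rpl7l1. Levels per length thus differed widely among these mRNAs, as counted here, and they depend on which transcript is annotated as the longest. Reads shared between these genes and their many pseudogenes can shift such levels, and their assignment is not given in the sources used.

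Rpl41, the gene of the smallest ribosomal protein, varied within both groups. It was at 50.6, 33.8 and 119 CPM in Acss2-KO livers, against 107, 97.7 and 54.2 CPM in WT livers (log2 fold change -0.48, SE 0.47, limma adjusted p = 0.452). Acss2-KO replicate 3 and WT replicate 3 each stood apart from the rest of their group, in opposite directions. Rpl10, whose protein joins late in large subunit assembly, was at 99.7, 64.0 and 85.6 CPM in Acss2-KO livers, against 80.5, 87.4 and 140.1 CPM in WT livers (log2 fold change -0.28, SE 0.26, limma adjusted p = 0.413). Rpl38, known in mouse embryos for the translation of Hox mRNAs, was at 77.7, 62.7 and 78.8 CPM in Acss2-KO livers, against 50.6, 47.8 and 101 CPM in WT livers (log2 fold change 0.21, SE 0.28, limma adjusted p = 0.577).

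In the small subunit, Rps28 and Rps13 rose. Rps28 encodes a small protein near the mRNA exit (chr17:33819027-33824562, ENSMUSG00000067288). It was at 102, 102 and 89.9 CPM in Acss2-KO livers, against 65.3, 53.4 and 76.6 CPM in WT livers, with no overlap. The log2 fold change was 0.59 (SE 0.18, limma adjusted p = 0.0339). The adjusted p was 0.080 (Acss2-KO 1 left out), 0.058 (Acss2-KO 2 left out), 0.079 (Acss2-KO 3 left out), 0.092 (WT 1 left out) and 0.14 (WT 2 left out). Its span overlaps that of Kank3, at 4.72, 7.11 and 4.50 CPM in Acss2-KO livers against 7.31, 7.62 and 9.85 CPM in WT livers, and reads of overlapping genes cannot be told apart without strand.

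Rps13 encodes the core protein uS15 (chr7:116331505-116334195, ENSMUSG00000090862). It was at 132.5, 103 and 145 CPM in Acss2-KO livers, against 75.1, 73.0 and 100.4 CPM in WT livers. The lowest Acss2-KO library and the highest WT library differed by only a few CPM. The log2 fold change was 0.61 (SE 0.21, limma adjusted p = 0.0453). The adjusted p was 0.10 (Acss2-KO 1 left out), 0.17 (Acss2-KO 3 left out), 0.14 (WT 1 left out), 0.15 (WT 2 left out), and 0.052 with the CPM of its pseudogene rows added.

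Rps6, the substrate of the S6 kinases, was at 286, 223 and 290.0 CPM in Acss2-KO livers, against 134 and 152 CPM in WT replicates 1 and 2 and 244 CPM in WT replicate 3. Its log2 fold change was 0.63 (SE 0.25, limma adjusted p = 0.0818). Without WT replicate 3 it was 0.88 (adjusted p = 0.022). The limma adjusted p of Rps6 was 0.022 to 0.26 when each library was left out in turn. Rpsa, the laminin receptor and a small subunit protein, was at 326, 251 and 317 CPM in Acss2-KO livers, against 159, 159 and 309 CPM in WT livers (log2 fold change 0.58, SE 0.28, limma adjusted p = 0.138). Without WT replicate 3 the log2 fold change of Rpsa was 0.90 (adjusted p = 0.019). Its limma adjusted p was 0.019 to 0.36 when each library was left out in turn.

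Rps18, among the most abundant small subunit mRNAs by CPM, was at 336, 280.1 and 365 CPM in Acss2-KO livers, against 212, 191 and 383 CPM in WT livers (log2 fold change 0.38, SE 0.28, limma adjusted p = 0.309). Its WT replicates 1 and 2 were below and WT replicate 3 above all Acss2-KO libraries. Rps26, at the mRNA exit channel, was at 126, 117 and 159.8 CPM in Acss2-KO livers, against 96.3, 83.3 and 124 CPM in WT livers (log2 fold change 0.41, SE 0.21, limma adjusted p = 0.157).

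Without WT replicate 3, 15 large subunit genes were higher and 2 lower, and 16 small subunit genes were higher and 0 lower (limma over 9312 tested genes), against 9.88% of all tested genes higher, 21% lower and 30.9% either. With all 6 libraries, 1 large and 2 small subunit genes were higher. The median log2 fold change without it was 0.46 for the large and 0.56 for the small subunit. Rpl35 had 0.83 (SE 0.14, adjusted p = 0.016) without it and 0.36 with it. Rps16 had 0.82 (SE 0.15, adjusted p = 0.019) without it and 0.47 with it. Rps12 had 0.79 (SE 0.18, adjusted p = 0.029) without it and 0.52 with it. Rpl27a was no longer called without WT replicate 3. This library was singled out for its values, so these counts describe how far the result rests on it and are no further test.

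**Figure D5:**
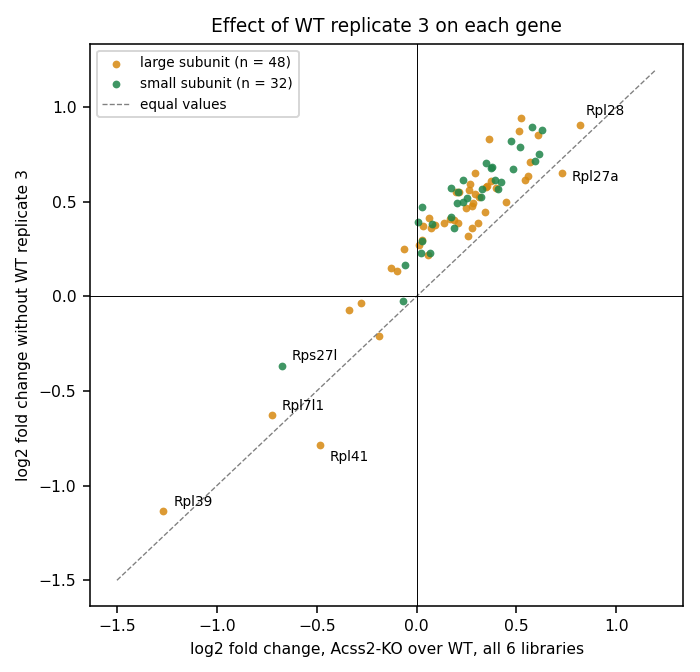
Log2 fold change of each tested gene, Acss2-KO over WT, with all 6 libraries (horizontal) and without WT replicate 3 (vertical), for large (orange) and small (green) subunit genes. The dashed line marks equal values. Of the 80 genes, 77 lie above the line, and Rpl41, Rpl27a and Rpl36al lie below it.

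Set against the ribosomal proteins as a group, some members ran lower or higher in all 3 Acss2-KO libraries. Relative to the median of the core genes in the same library, on the log2 scale, 11 of the 80 tested members were lower in every Acss2-KO library than in every WT library, 8 were higher and 61 overlapped. Of all tested genes, 32.2% were lower, 8.08% higher and 40.3% either on this scale. The share of higher members was thus near that of all tested genes, and the share of lower members was below it. Rpl22 was at -0.40, -0.45 and -0.44 in Acss2-KO livers, against 0.07, 0.14 and 0.31 in WT livers, although its log2 fold change was -0.34 (SE 0.24, limma adjusted p = 0.3). Rps6 was at 0.93, 0.69 and 0.86 in Acss2-KO livers, against 0.21, 0.60 and 0.57 in WT livers. Rpl10a was at 0.89, 0.71 and 0.88 in Acss2-KO livers, against 0.48, 0.39 and 0.57 in WT livers. Rpl39, Rpl7l1 and Rps27l were the lowest by this measure, with differences in group means of -1.53, -0.99 and -0.94. These are descriptions, with no test.

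Paralogs were compared with the gene they resemble as the log2 difference within each library, a measure that library scaling moves little. Rpl22l1 minus Rpl22 was -2.87, -2.87 and -2.79 in Acss2-KO livers, against -3.79, -3.78 and -3.51 in WT livers. The groups did not overlap, and their means differed by 0.85 on the log2 scale (two-sided exact permutation p = 0.1, adjusted p = 0.167). In mouse, the Rpl22 protein is known to repress Rpl22l1. By itself, Rpl22l1 was at 14.7, 13.0 and 16.2 CPM in Acss2-KO livers, against 7.89, 7.16 and 17.0 CPM in WT livers (log2 fold change 0.51, SE 0.29, limma adjusted p = 0.192). Without WT replicate 3 its log2 fold change was 0.87 (limma adjusted p = 0.018). Its adjusted p was 0.018 to 0.48 when each library was left out in turn.

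Rps27l is a p53 target gene in human cells, and its protein resembles the small subunit protein eS27. It was at 68.1, 83.3 and 88.6 CPM in Acss2-KO livers, against 104, 102 and 195 CPM in WT livers, with no overlap (log2 fold change -0.67, SE 0.27, limma adjusted p = 0.076). Rps27l minus Rps27 was -0.70, -0.04 and -0.46 in Acss2-KO livers, against 0.60, 0.74 and 0.52 in WT livers, so Rps27l was the lower of the pair in the Acss2-KO libraries and the higher in the WT libraries. Rpl7l1 minus Rpl7 was -3.22, -2.76 and -3.47 in Acss2-KO livers, against -2.15, -2.08 and -2.55 in WT livers. The differences in group means were -1.02 for the Rps27l pair and -0.89 for the Rpl7l1 pair.

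Rpl36al minus Rpl36a overlapped between the groups, at 0.50, 0.84 and 0.05 in Acss2-KO livers against 1.26, 1.38 and 0.19 in WT livers. Rpl36al alone had a log2 fold change of -0.19 (SE 0.19, limma adjusted p = 0.46). Rps4l minus Rps4x also overlapped, with group means of -4.20 in Acss2-KO livers and -4.21 in WT livers. Over these 5 pairs a two-sided exact permutation test gave p = 0.1 for the Rpl7l1, Rpl22l1 and Rps27l pairs, which is the smallest p that 3 against 3 libraries allow, 0.3 for Rpl36al and 1 for Rps4l. Adjusted over the 5 pairs, the smallest was 0.167, so no pair passed.

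Genes of ribosomal proteins that carry another symbol fell outside the rule. Gnb2l1, which encodes the scaffold protein RACK1 on the small subunit, was at 495, 393 and 530.1 CPM in Acss2-KO livers, against 315, 292 and 465 CPM in WT livers (log2 fold change 0.42, SE 0.24, limma adjusted p = 0.191). Fau, which encodes eS30 as a fusion with a ubiquitin-like protein, was at 309, 298 and 206.5 CPM in Acss2-KO livers, against 224, 197 and 296 CPM in WT livers (log2 fold change 0.18, SE 0.24, limma adjusted p = 0.579). Rps19bp1, by contrast, was kept by the rule although it encodes no subunit. It was at 10.5, 9 and 10.5 CPM in Acss2-KO livers, against 10.5, 9.85 and 11.2 CPM in WT livers (log2 fold change -0.07, SE 0.16, limma adjusted p = 0.753), a narrow range over all 6 libraries.

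The 51 rows of ribosomal protein pseudogenes followed the order of their parent genes. They summed to 413, 367 and 413 CPM in Acss2-KO livers, against 305, 278 and 464 CPM in WT livers. Of the 20 tested rows, 1 was higher by limma and 0 were lower, against 13.4% and 23.1% of all tested genes. At an unadjusted p under 0.05, 2 were higher and 0 lower. The count of higher rows was 7 of 21 tested (WT 3 left out), against 9.88% of all tested genes. It was 0 (each of Acss2-KO 1, Acss2-KO 3, WT 1 and WT 2 left out). Their median ratio of WT replicate 3 to the other WT libraries was 1.67. Such rows may hold reads of the parent mRNA, since the sequences are near copies.

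Genes that build ribosomes were set beside the proteins of the ribosome. Of 64 tested ribosome biogenesis genes, 32 were higher in Acss2-KO livers and 1 lower by limma, against 13.4% and 23.1% of all tested genes, with a median log2 fold change of 0.63. Their sum was 2795, 2053 and 2788 CPM in Acss2-KO livers, against 1668, 1509 and 1641 CPM in WT livers, with no overlap. Genes higher in this list numbered 32 (WT 3 left out), 17 (Acss2-KO 3 left out) and 21 (WT 2 left out). The ribosome biogenesis list was one drawn up with earlier results of these data known, as were the lists below.

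Rrp1b, a nucleolar protein of large subunit processing, was at 32.4, 17.9 and 25.5 CPM in Acss2-KO livers, against 6.32, 5.94 and 4.93 CPM in WT livers (log2 fold change 1.93, SE 0.23, limma adjusted p = 0.000831). Ddx21, a nucleolar RNA helicase, was at 125, 77.2 and 129.8 CPM in Acss2-KO livers, against 41.4, 37.0 and 27.1 CPM in WT livers (log2 fold change 1.61, SE 0.25, limma adjusted p = 0.00238). Gnl2, a GTPase of large subunit export, had 1.19 (SE 0.18, limma adjusted p = 0.00242). The gene that was lower was Utp6, a small subunit processome protein, at 12.6, 17.3 and 13.8 CPM in Acss2-KO livers against 30.5, 29.6 and 29.4 CPM in WT livers (log2 fold change -0.997, SE 0.17, limma adjusted p = 0.00336). The groups did not overlap in any of these 4 genes, and each call held whichever single library was left out.

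Of 14 tested genes of RNA polymerase I and its factors, 4 were higher and 3 lower, against 13.4% and 23.1% of all tested genes. Taf1d, a subunit of the promoter factor SL1, had a log2 fold change of 1.66 (SE 0.25, limma adjusted p = 0.00225). Ttf1, the transcription termination factor of rDNA, had -1.80 (SE 0.20, limma adjusted p = 0.000743). Genes higher in this list numbered 7 (Acss2-KO 2 left out) and 2 (Acss2-KO 3 left out). Among 17 tested chaperones and importers of ribosomal proteins, 6 were higher and 1 lower, and the higher genes numbered 3 (Acss2-KO 1 left out), 1 (Acss2-KO 3 left out), 2 (WT 2 left out) and 3 (WT 3 left out). The gene called lower, Pdcd2l, kept its call only without Acss2-KO replicate 2 (log2 fold change -0.55, SE 0.18, limma adjusted p = 0.0375 with all libraries). Grwd1, whose yeast relative is the chaperone of Rpl3, was at 18.2, 13.6 and 17.6 CPM in Acss2-KO livers, against 10.3, 8 and 7.95 CPM in WT livers (log2 fold change 0.84, SE 0.19, limma adjusted p = 0.00961).

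Of 24 other mRNAs of the TOP class tested, 3 were higher and 0 lower, against 13.4% and 23.1% of all tested genes, with a median log2 fold change of 0.06. The share of higher genes was thus near that of all tested genes. The count of higher genes was 5 with scaling by trimmed means, and 1 (Acss2-KO 1 left out), 5 (Acss2-KO 2 left out), 0 (Acss2-KO 3 left out), 0 (WT 2 left out) and 1 (WT 3 left out). None was lower at an unadjusted p under 0.05 (0 of 24). The 3 were Hnrnpa1 (log2 fold change 0.71, SE 0.18, limma adjusted p = 0.0152), Pabpc1 (0.77, SE 0.22, adjusted p = 0.0272) and the elongation factor Eef2 (0.71, SE 0.22, adjusted p = 0.0357). Each lost its call without Acss2-KO replicate 3 and again without WT replicate 2. Pabpc1 and Eef2 also lost it without Acss2-KO replicate 1 and without WT replicate 3, and Eef2 without WT replicate 1. In contrast to the ribosomal protein genes, Eef2 was lowest in WT replicate 3, at 3019, 2226 and 2876 CPM in Acss2-KO livers against 1911, 1687 and 1361 CPM in WT livers.

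Of 18 tested genes that bind TOP mRNAs or belong to the mTORC1 arm, 4 were higher and 2 lower, against 13.4% and 23.1% of all tested genes. Eif4ebp3, an inhibitor of the cap-binding protein eIF4E, was at 88.6, 68.1 and 54.6 CPM in Acss2-KO livers, against 1.97, 1.85 and 4.32 CPM in WT livers (log2 fold change 4.30, SE 0.28, limma adjusted p = 8.7e-05). Eif4ebp1, its relative and an mTORC1 substrate, was at 108, 79.9 and 138 CPM in Acss2-KO livers, against 45.6, 45.9 and 56.5 CPM in WT livers (log2 fold change 1.10, SE 0.22, limma adjusted p = 0.0067). Larp1, the TOP-binding protein itself, did not pass, at 184, 168 and 185 CPM in Acss2-KO livers against 165, 164 and 93.7 CPM in WT livers (log2 fold change 0.38, SE 0.24, limma adjusted p = 0.24). Larp4b was lower, with a log2 fold change of -1.11 (SE 0.21, limma adjusted p = 0.00475). The calls of Eif4ebp3, Eif4ebp1 and Larp4b held whichever single library was left out. The count of higher genes in this list was 2 (each of Acss2-KO 3, WT 1 and WT 2 left out), 2 also with a pseudocount of 5 CPM, and the count of lower genes was 5 (WT 3 left out) and 1 (each of the others just named left out).

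In the arm that links free ribosomal proteins to p53, 1 of 10 tested genes was higher and 2 lower, against 13.4% and 23.1% of all tested genes. Cdkn1a, the p53 target that encodes the cell cycle inhibitor p21, was at 201, 215 and 333 CPM in Acss2-KO livers, against 5.86, 10.5 and 6.59 CPM in WT livers (log2 fold change 4.86, SE 0.26, limma adjusted p = 2.75e-05). Trp53, which encodes p53, was at 2.62, 6.5 and 3.68 CPM in Acss2-KO livers, against 19.8, 18 and 15.8 CPM in WT livers (log2 fold change -1.90, SE 0.26, limma adjusted p = 0.00154). Mdm2, the ubiquitin ligase of p53 and itself a p53 target, did not pass, at 36.5, 40.2 and 43.7 CPM in Acss2-KO livers against 34.5, 26.7 and 35.0 CPM in WT livers (log2 fold change 0.32, SE 0.17, limma adjusted p = 0.171). The higher genes numbered 3 (Acss2-KO 2 left out), 2 (WT 3 left out) and 2 under each of the 3 rescalings, and the lower genes 1 (Acss2-KO 3 left out). The members of this list thus did not move one way. Of 25 tested genes of ribosome quality control and stalling, 1 was higher and 4 lower, against 13.4% and 23.1% of all tested genes, with a median log2 fold change of -0.11. The lower genes numbered 0 (Acss2-KO 3 left out), 1 (WT 1 left out) and 2 with trimmed means, and the higher genes 0 (Acss2-KO 3 left out) and 2 under each rescaling.

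Mitochondrial ribosomal proteins, which form another ribosome, had a median of the opposite sign. Of 74 tested, 2 were higher and 26 lower in Acss2-KO livers, against 13.4% and 23.1% of all tested genes. Their median log2 fold change was -0.38, against 0.26 and 0.24 for the cytosolic subunits. They summed to 1733, 1892 and 1854 CPM in Acss2-KO livers, against 2166, 2102 and 2658 CPM in WT livers. Rescaled, their lower genes numbered 14 (median of ratios), 13 (trimmed means) and 15 (quantiles), with medians of -0.25, -0.24 and -0.27. Over all tested genes 1669, 1586 and 1615 were lower under these scalings, against 2161 on the CPM scale. Without WT replicate 3 their median was -0.25, with 1 higher and 16 lower of 74, against 9.88% and 21% of all tested genes. The share of lower genes was then near that of all tested genes. The lower genes numbered 12 (Acss2-KO 1 left out), 11 (Acss2-KO 3 left out), 14 (WT 1 left out) and 15 (WT 2 left out). Over all tested genes the lower ones numbered 1614, 1239, 1302 and 1345 in these same fits. Of 54 tested translation initiation factors, 11 were higher and 1 lower, against the same shares of all tested genes, with a median of 0.22, and the higher genes numbered 7 (Acss2-KO 1 left out, and likewise WT 1), 4 (Acss2-KO 3 left out) and 6 (WT 2 left out). No test of the difference between these groups and the cytosolic ribosomal proteins was made.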

How the data were processed

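RNA of 3 Acss2-KO and 3 WT livers was made into libraries with the Illumina TruSeq RNA kit, per the labels' protocols. The submitters' processing notes name Bowtie 0.12.2 and mm8 without saying what for, and how reads shared by several genes or by both strands were counted is not given in the sources used. The table deposited by the authors holds log2 CPM values of each library, rounded, with values of 1 CPM or less listed at 0, and the authors' own log2 fold changes and p-values. The unit was read from the values: the CPM of a library sum to between 997061 and 997856. Coordinates are given as in the table, whose gene starts differ from RefSeq GRCm38 by a median of 8 bp over 11625 genes.

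Values were turned back to CPM and tested as log2(CPM + 1) for genes that averaged 5 CPM or more, without a replicate block, by limma 3.58.1 with a robust mean-variance trend (R 4.3.3, statmod 1.5.0), with Benjamini-Hochberg adjustment over all tested genes at 0.05. The pipeline was tested on simulated data. Fold changes on this scale understate changes of low genes. Exact permutation tests used scipy 1.17.1. Lengths are the longest coding transcript in GENCODE vM1, found for 96.2% of tested genes. The ribosomal protein genes and all gene lists were chosen with earlier results of these data known. Genes named are those past the threshold, the most abundant of each subunit, paralogs, ribosomal proteins under another symbol, textbook members, and from each other list those with the smallest p. Rpl28, Rpl6, Rpl8, Rpl10a, Rpl19, Rpl22, Rpl27, Rpl29, Rpl35, Rpl41, Rps12, Rps16, Lyve1, Sox9 and Spp1 were named after their values were seen. Alternatives covered scaling, pseudocount, filter, replicate block, left-out libraries and added pseudogene rows. Some items are not reported here.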

Additional observations from a re-analysis of the deposited data

How the results depend on the processing

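The direction of the median of each subunit held under all alternatives run, from 0.09 to 0.46 for the large and 0.07 to 0.56 for the small subunit with single libraries left out. Large subunit genes called higher numbered 5 with median-of-ratios scaling, 5 with trimmed means and 6 with quantile scaling, and ran from 0 to 15 with single libraries left out. Those called lower ran from 1 to 2, and small subunit genes called higher from 0 to 16. Dropping a pair of libraries, Acss2-KO 1 and WT 2, gave 0 higher and 1 lower in the large and 0 higher in the small subunit, with 715 higher and 1319 lower over all tested genes. Over all tested genes single libraries left out gave 519 to 1608 higher and 1239 to 2420 lower, and a minimum mean of 20 CPM, which tests fewer genes, gave 741 and 1112. With pseudogene rows added, an alternative chosen after seeing the data, 1 small subunit gene was higher.

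Same-numbered libraries gave no sign of deviating together (correlations of -0.10, -0.14 and 0.09, with 1 of 3 closest to its own number). With so few libraries this cannot exclude a pairing. With the replicate block, 2 large subunit genes were higher and 2 lower, and 1 small subunit gene was higher and 1 lower. In that fit Rps28 did not pass (adjusted p = 0.0513), while Rpl28 (0.0387) and Rps27l (0.0398) passed.

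Signs changed for some genes with small differences. Single libraries left out gave -0.14 to 0.27 for Rplp1, -0.11 to 0.36 for Rpl5 and -0.42 to 0.33 for Rps4l minus Rps4x. With Acss2-KO 1 and WT 2 left out together, the values were -0.10 for Rplp1, -0.22 for Rpl5, -0.026 for Rpl38 and -0.055 for Fau. With all libraries Rpl38 had 0.21 and Fau 0.18. Rps19bp1 was at 0.05 with median-of-ratios scaling, 0.063 with trimmed means and 0.12 with quantile scaling. Rps4l minus Rps4x was -0.025 with a pseudocount of 5 CPM and -0.0018 with quantile scaling, and Rpl22l1 minus Rpl22 was 0.70 with a pseudocount of 5 CPM. The cause of these shifts was not tested. The 3 libraries a group and the spread among WT libraries limit what could be called: the median SE of the log2 fold change was 0.24 for large and 0.25 for small subunit genes, against 0.20 for all tested genes.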

Other observations

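Some pseudogene rows stood far higher in a single library than in the others, and these were picked after their values were seen. Rpl17-ps8 was at 27.1 CPM in WT replicate 2. It was listed at 0 on the log2 scale in all 3 Acss2-KO libraries and in WT replicates 1 and 3. Its parent Rpl17 was at 21.4 CPM in WT replicate 2, against 46.8 and 67.6 CPM in the other WT libraries. In Acss2-KO replicates 1, 2 and 3, Rpl17 was at 23.1, 47.8 and 70.0 CPM. It was thus also low in Acss2-KO replicate 1, where Rpl17-ps8 was listed at 0. In that library another pseudogene row, Rpl17-ps5, was at 6.68 CPM, and it was listed at 0 in the other 5. Rpl5-ps2 was at 32.4 CPM in Acss2-KO replicate 2, where Rpl5 was at its lowest of the 6 libraries, 227.5 CPM, and at 1.82 to 4.29 CPM in the other 5. Rps6-ps3 was at 15.4 CPM in WT replicate 1 and listed at 0 on the log2 scale in the other 5, and Rps6 was lowest in WT replicate 1, at 134 CPM. Rps19-ps7 was at 16.8 CPM in WT replicate 1 and at 1.59 to 2.83 CPM in the other 5, and Rps19 was at 61.4 CPM in WT replicate 1, between 45.3 CPM in WT replicate 2 and 97.0 CPM in WT replicate 3.

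Rps3a1 had the widest range among core small subunit genes within the Acss2-KO group, at 124, 236 and 350 CPM in Acss2-KO replicates 1, 2 and 3, against 193, 126 and 396 CPM in WT replicates 1, 2 and 3.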
